A study of Mus musculus with 4 samples.

Results

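Long autosomal stretches of mouse heart chromatin without an H3K27ac peak were taken from the replicated peak list of a chromatin immunoprecipitation series. Each stretch, called a gap here, ran for at least 500 kb from the end of a peak to the start of the next on the same autosome. The peak positions themselves chose the gaps, so their absence of replicated peaks is a definition and was not tested. The replicated list held 61886 autosomal peaks, which left 61867 intervals between neighbours, and 772 of these intervals were gaps. Of 20807 autosomal protein-coding genes, 3203 lay wholly inside a gap, which is 15.4% of them.

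All libraries came from the same kind of sample, heart tissue of female B6CASTF1/J mice aged 2 months, with an antibody to H3K27ac. The strain is a hybrid of C57BL/6J and CAST/EiJ, and each of the 2 biological replicates was a pool of 2 hearts, read as 2 technical replicates. Both pools carry the same donor identifier in the labels, and the number of animals behind it is not stated, so the spread between the pools may be technical. Besides the replicated list, the deposited lists were pseudoreplicated peaks of biological replicate 1, of biological replicate 2 and of both pooled. These lists share reads with the replicated list, so they check the gaps without being independent of them. The pooled list also shares peak calls, since 56267 autosomal peaks of the replicated list, or 90.9%, were the same peak in it. What the pooled list shows of the gaps is therefore partly fixed in advance. No list gives a read number, and the depth is unknown.

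H3K27ac is the acetylated form of lysine 27 of histone H3, a mark of active promoters and enhancers that is placed by the acetyltransferases p300 and CBP. Stretches that lack it can hold genes that are silent in the tissue, genes whose promoters carry other marks, or no gene at all. Many tissue-restricted families of the mouse, such as the olfactory receptors, sit in large clusters that arose by gene duplication. Many genes of neurons are instead very long and lie alone in wide intergenic regions.

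The following 4 stretches of sequence show what the gaps hold and what bounds them, each with the CG dinucleotides in capitals. The promoters run from 250 bases before to 50 bases after the RefSeq start of the gene on GRCm38.p6. Olfr1164, an odorant receptor gene, was shown as the olfactory receptor farthest from any peak among those whose RefSeq and GENCODE starts lay close together. It lies in a 4.47 Mb gap at chr2:86020653-90489735, 2070 kb from the nearest peak, and its promoter, chr2:88093917-88094216 on the minus strand, had a GC content of 39.3% and 3 CG dinucleotides. Lrfn5, which encodes a synaptic adhesion protein, was the gap gene farthest from a peak, at 2300 kb. Its promoter, chr12:61522917-61523216 on the plus strand, had a GC content of 67.7% and 32 CG dinucleotides. Ccser1 is inside a 5.19 Mb gap, but the replicate 2 and pooled lists had peaks near its promoter, and the replicate 1 list had none. This promoter, chr6:61180075-61180374 on the plus strand, was shown for that reason. It had 75.7% GC and 46 CG dinucleotides. For the edge of a gap, the 300 bases around the summit of the peak on the right of the longest gap are given, chr1:30873630-30873929 on the plus strand of GRCm38, with 79.3% GC and 48 CG dinucleotides.
Olfr1164 promoter: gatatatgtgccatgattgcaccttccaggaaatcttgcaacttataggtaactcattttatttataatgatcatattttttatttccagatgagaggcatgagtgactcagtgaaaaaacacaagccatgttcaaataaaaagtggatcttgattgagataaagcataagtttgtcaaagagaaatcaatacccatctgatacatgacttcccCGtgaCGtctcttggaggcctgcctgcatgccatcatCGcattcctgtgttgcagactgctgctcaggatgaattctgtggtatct
Lrfn5 promoter: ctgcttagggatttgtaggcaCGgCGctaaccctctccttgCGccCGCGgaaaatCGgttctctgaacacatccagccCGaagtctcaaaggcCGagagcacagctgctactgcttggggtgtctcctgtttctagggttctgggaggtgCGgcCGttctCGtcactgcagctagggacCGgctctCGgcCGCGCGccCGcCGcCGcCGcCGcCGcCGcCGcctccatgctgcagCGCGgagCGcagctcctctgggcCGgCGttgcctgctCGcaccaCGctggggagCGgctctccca
Ccser1 promoter: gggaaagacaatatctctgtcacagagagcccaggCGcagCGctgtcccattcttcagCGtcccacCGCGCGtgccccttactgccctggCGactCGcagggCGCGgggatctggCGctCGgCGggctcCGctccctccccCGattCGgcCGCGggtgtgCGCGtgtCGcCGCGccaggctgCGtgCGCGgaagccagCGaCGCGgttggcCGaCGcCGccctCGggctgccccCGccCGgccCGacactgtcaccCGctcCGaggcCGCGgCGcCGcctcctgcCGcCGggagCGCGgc
Peak bounding the longest gap: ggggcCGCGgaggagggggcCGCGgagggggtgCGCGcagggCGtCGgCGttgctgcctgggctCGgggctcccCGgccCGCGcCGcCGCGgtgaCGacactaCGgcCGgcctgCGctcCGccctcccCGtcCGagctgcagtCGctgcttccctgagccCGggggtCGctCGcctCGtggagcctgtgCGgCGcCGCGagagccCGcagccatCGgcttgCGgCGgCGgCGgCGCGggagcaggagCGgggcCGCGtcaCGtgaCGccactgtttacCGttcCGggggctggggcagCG
The olfactory receptor promoter is nearly free of CG, whereas the promoter of Lrfn5 is dense in CG, like the bounding peak, and yet lies far from any peak.

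The gaps covered 972 Mb, or 39.5% of the 2463 Mb of the autosomes. Their median length was 896 kb, with quartiles of 651 kb and 1490 kb, against a median of 3.84 kb for all intervals between neighbouring autosomal peaks. Only 1.25% of intervals were gaps. The stretches between gaps, without the chromosome ends, covered 1420 Mb and held 43.6 replicated peaks per Mb. Among the gaps, 338 were at least 1 Mb long and 113 at least 2 Mb, and those of at least 2 Mb made up 36.6% of the gap length. The shortest gaps were 502.6, 502.8 and 503.6 kb long, and the longest intervals that fell short of the threshold were 499.2, 498.0 and 497.6 kb. The 72.0 Mb before the first and after the last peak of each autosome, which include the unsequenced centromeric ends, were not counted as gaps.

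**Figure D1:**
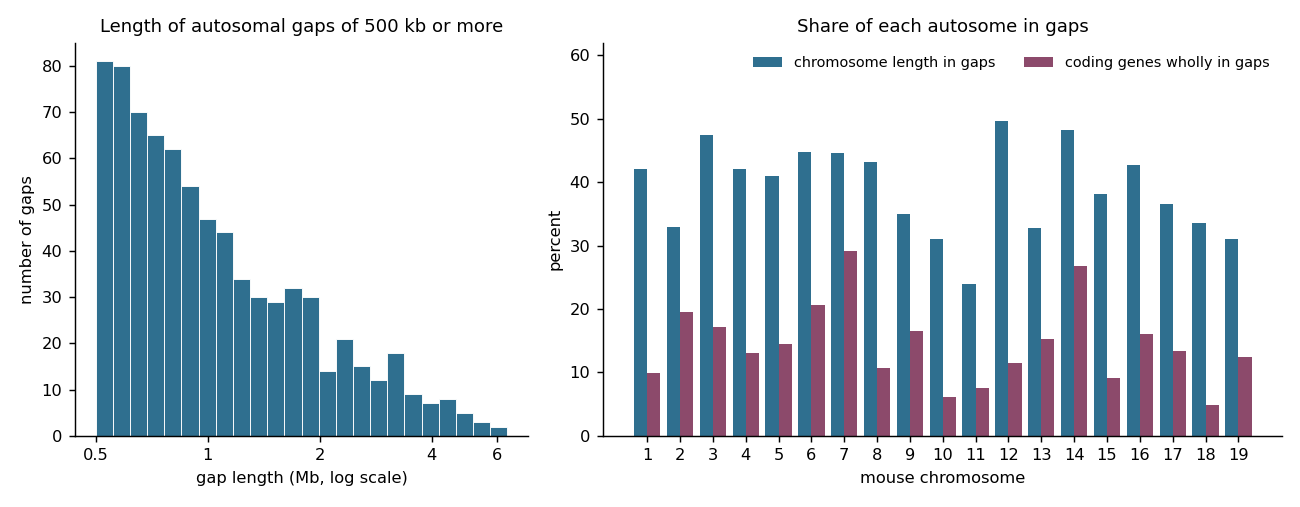
Left, the number of gaps by length in Mb on a log scale. Right, for each autosome, the percentage of its length in gaps and the percentage of its protein-coding genes wholly inside gaps. The share of length was lowest on chromosome 11, at 24.0%, and the share of genes was highest on chromosome 7, at 29.2%.

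Chromosomes differed in how much of them lay in gaps, and the share of genes did not follow the share of length. Chromosome 12 had 49.6% of its length in gaps, chromosome 14 had 48.2% and chromosome 3 had 47.4%, whereas the gene-dense chromosome 11 had 24.0%. Of coding genes, 29.2% lay in gaps on chromosome 7, 590 of 2023, and 26.7% on chromosome 14, but only 4.87% on chromosome 18, where 33.5% of the length was in gaps. The high share of genes on chromosome 7 goes with clusters of receptor genes described below.

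The longest gap, 6.17 Mb at chr1:24700618-30872532, ran between Lmbrd1 and Phf3 and held 3 coding genes. They were Adgrb3, an adhesion receptor of neurons, 4931408C20Rik and Gm597. The second, 6.05 Mb at chr1:98280780-104333441 between Pam and Cdh20, held Cntnap5b, a contactin-associated protein, and Slco6d1, an organic anion transporter of the Slco family. A 5.54 Mb gap at chr3:41743331-47280149 held the protocadherin Pcdh10 and Pabpc4l. Further genes of cell adhesion lay in other gaps of this class. The 5.50 Mb gap between Sybu and Trps1 held Csmd3 and the potassium channel modifier Kcnv1, the 5.17 Mb gap between Fbxo33 and Fscb held Lrfn5 alone, and the 4.89 Mb gap between Cdh6 and Cdh12 held the cadherins Cdh10 and Cdh9 and the thioesterase gene Acot10. A 5.19 Mb gap on chromosome 6 held Ccser1 and Mmrn1, a multimerin, among its coding genes.

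Other gaps among the 15 longest held signalling genes. Adcyap1, which encodes the neuropeptide PACAP, was the only coding gene wholly inside a 4.71 Mb gap on chromosome 17. Grik2, a kainate receptor subunit, was alone in 4.70 Mb between Hace1 and Ascc3. The 4.67 Mb gap between Sorcs3 and Xpnpep1 held Sorcs1, a sorting receptor, and Ins1, an insulin gene of pancreatic beta cells. G6pd2 was alone in 4.63 Mb between Pcdh7 and Arap2, and the 4.60 Mb gap between Rgs2 and Pla2g4a held Brinp3 and 4 regulators of G-protein signalling, Rgs1, Rgs13, Rgs18 and Rgs21. An olfactory receptor cluster of 194 genes filled the 4.47 Mb gap between Olfr1033 and Ptprj, which held 200 coding genes in all. The 4.45 Mb gap between Ctnna2 and Gcfc2 held the synaptic adhesion gene Lrrtm4 and Reg genes, secreted lectins of gut and pancreas. The 4.42 Mb gap between Pcdh20 and Pcdh9 at chr14:89076562-93498833 held no coding gene.

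**Figure D2:**
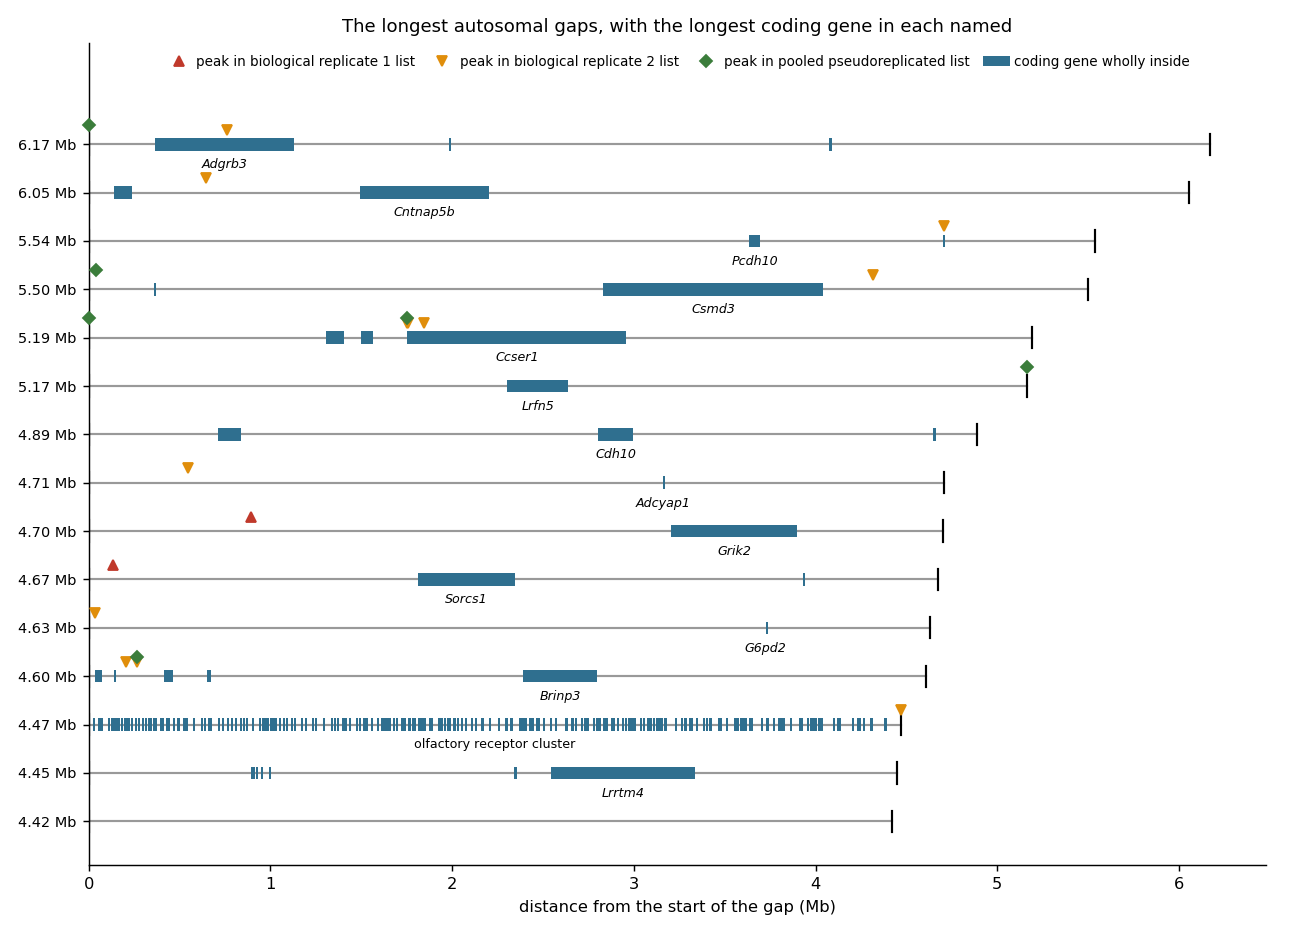
Each line is one of the 15 longest gaps, in order of length, with distance from its start in Mb. Blue boxes are coding genes wholly inside, of which the longest is named, and symbols above the line are peaks wholly inside the gap in the 3 other lists. Replicate 2 peaks stand in 9 of these gaps and replicate 1 peaks in 2.

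Few of the gaps were dense in genes. Gaps held 3.29 protein-coding genes per Mb, against 12.4 per Mb between gaps. No coding gene lay wholly inside 274 gaps, which is 35.5%, and 100 of those did not overlap a coding gene at all. A further 188 gaps held 1 coding gene, 199 held 2 to 5, 68 held 6 to 19, and 43 held 20 or more. Those 43 gaps alone contained 1760 of the 3203 genes. Another 655 genes reached into a gap without lying wholly inside it, and 15 gaps lay within the body of a single gene. Among these were a 1430 kb stretch of Magi2, which encodes a synaptic scaffold protein, a 1290 kb stretch of the receptor phosphatase gene Ptprd, and 2 neighbouring stretches of 549 and 1050 kb of Dlg2, another synaptic scaffold.

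Genes for detecting odours, pheromones and tastes made up the largest group of gap genes. Olfactory receptors, the odour sensors of the nasal epithelium, accounted for 828 of the 3203 gap genes, or 25.9% (exact 95% interval of 24.3 to 27.4%, which covers counting only, since neighbouring genes are not independent), against 5.42% of all autosomal coding genes. Of the 1128 autosomal olfactory receptor genes, 73.4% lay in gaps, in 29 gaps on 13 chromosomes, against the 15.4% of all coding genes. The longest were Olfr643, Olfr164 and Olfr943. Vomeronasal receptors, which sense pheromones, were in gaps for 170 of 208 type 1 genes and 96 of 119 type 2 genes, and the longest of each type were Vmn1r68, Vmn1r69 and Vmn1r73, and Vmn2r7, Vmn2r60 and Vmn2r71. The bitter taste receptors had 31 of 35 genes in gaps, led in length by Tas2r117, Tas2r130 and Tas2r137. The Mas-related receptors, itch and pain receptors of sensory neurons, had 15 of 20, all in the same gap. By contrast none of the 15 trace amine receptor genes lay in a gap, since all 15 stood in intervals of between 250 and 500 kb.

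The 300 remaining olfactory receptor genes lay nearer to peaks than those in gaps, as the choice of the gaps by peak positions fixes. The median distance to the nearest replicated peak was 348 kb for receptor genes in gaps and 62.7 kb for the others, of which 88 stood in intervals of 250 to 500 kb. A replicated peak was rare at either. Only 6 of all 1128 had a replicated peak within 1 kb of a transcription start site (TSS), against 58.2% of all autosomal coding genes. They were Olfr1033, Olfr1394, Olfr1396, Olfr221, Olfr433 and Olfr56. Among type 1 vomeronasal receptors Vmn1r4 alone had such a peak, and no type 2 receptor did.

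Several of the densest gaps were single receptor clusters. The gap at chr7:19941218-24081384 held 105 coding genes, 65 of them type 1 vomeronasal receptors, and that at chr7:102706360-104218827 held 92, of which 80 were olfactory receptors. Within the same gap stood Hbb-bs and Hbb-bt, which encode beta-globin of adult blood and were named after their values were seen, at 391 and 405 kb from the nearest peak.

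**Figure D3:**
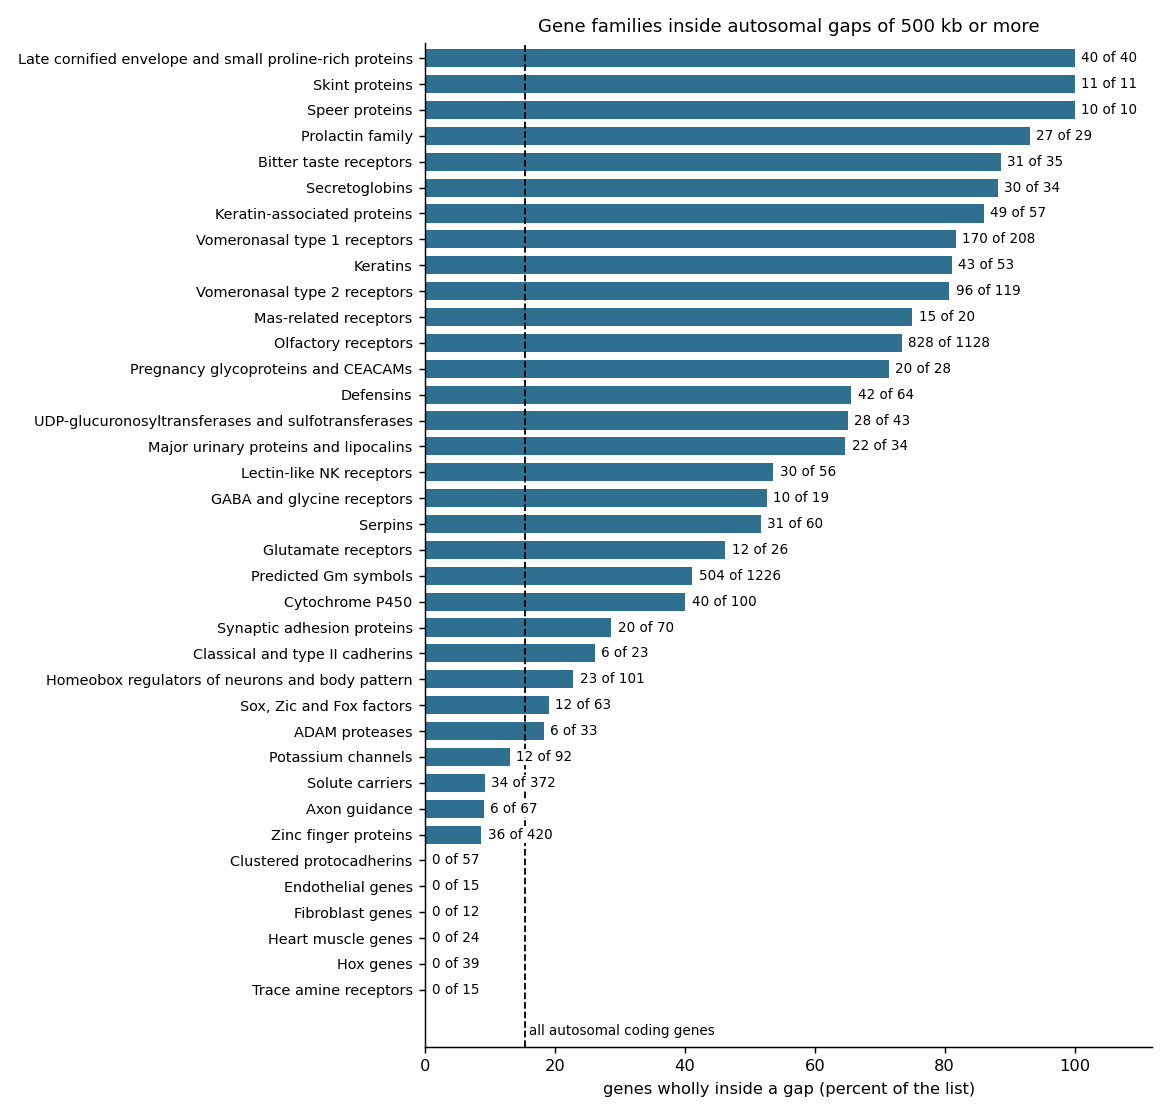
For each gene list, the percentage of its autosomal genes that lay wholly inside a gap, with the counts beside the bars. The dashed line marks the 15.4% of all autosomal coding genes, and lists with fewer than 5 genes in gaps are left out except for 6 with none. The type I interferon and membrane-spanning 4A lists, of 20 and 19 genes, also had none in gaps and are not drawn.

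A second group of families belongs to skin, hair and mucosal defence. All 40 genes of the late cornified envelope, small proline-rich and filaggrin group, which build the outer layer of the skin, lay in a single gap of 2.90 Mb at chr3:90615538-93520186, the longest being Sprr2a2, Flg2 and Flg. Keratins, the intermediate filaments of epithelia and hair, had 43 of 53 genes in gaps, among which Krt7, Krt23 and Krt79 were longest, and keratin-associated proteins of the hair shaft had 49 of 57. One gap of 0.904 Mb on chromosome 11 held 23 keratin-associated genes and 20 keratin genes. Of the antimicrobial defensins, 42 of 64 were in gaps, 32 of them in 1.51 Mb at chr8:20550718-22060185. All 11 Skint genes, which act in the selection of skin T cells, shared a single gap.

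Families of placenta, liver and secretions followed. The prolactin list, which includes the placental hormones and also the receptor gene Prlr, had 27 of 29 genes in gaps. Pregnancy-specific glycoproteins and CEACAMs had 20 of 28, and secretoglobins, small secreted proteins, had 30 of 34. Major urinary proteins and lipocalins, carriers made largely in liver, had 22 of 34 genes in a single gap. Of enzymes and inhibitors of liver metabolism and plasma, 40 of 100 cytochrome P450 genes, 28 of 43 UDP-glucuronosyltransferase and sulfotransferase genes, and 31 of 60 serpins lay in gaps. The longest of these lists were Cyp2c38, Cyp2c66 and Cyp2j8, the enzymes Sult2a4, Ugt8a and Sult2a3, and the protease inhibitors Serpinb3b, Serpina1b and Serpinb7. Lectin-like receptors of natural killer and myeloid cells had 30 of 56. By contrast, none of the 20 genes of the type I interferon list and none of the 19 membrane-spanning 4A genes lay in a gap. Their median distances to the nearest peak were 23.8 and 27.5 kb. These lists were chosen with earlier results of these data known, so the counts describe the gaps and carry no test.

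Antigen receptor loci, which are rearranged in lymphocytes, had most of their variable segments in gaps. All 218 immunoglobulin variable segments on the autosomes lay in gaps, as did 138 of 144 T cell receptor variable segments. Of all 51229 autosomal genes of any kind, 25.7% lay in gaps. Other parts of these loci were less complete, with 37 of 70 T cell receptor joining segments and 5 of 13 immunoglobulin constant genes in gaps. The immunoglobulin heavy chain locus placed all 134 of its variable, diversity and joining segments in a 2.62 Mb gap on chromosome 12, and the kappa locus placed all 105 in a 3.51 Mb gap on chromosome 6. No peak of any of the other 3 lists lay inside either gap. The gap of the lambda locus held 1 peak of replicate 1 and 1 of replicate 2, both within 1 kb of a TSS of the coding gene B3gnt5. The gaps of the T cell receptor beta locus held 2 peaks of replicate 2. Of these, 1 lay within 1 kb of a TSS of the coding gene Ephb6 and the other 3.44 kb from a gap edge. The T cell receptor alpha locus placed 126 of 159 segments in a 1.86 Mb gap on chromosome 14. Copies of genes without a coding product differed by kind. Unprocessed pseudogenes, left by gene duplication, were at 1.27 per Mb in gaps and 0.388 per Mb between gaps, whereas processed pseudogenes, left by retrotransposition, were at 3.71 and 3.75 per Mb.

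Several lists of genes of neurons were described next, each beside the 15.4% of all coding genes. Of 26 glutamate receptor genes, which mediate excitatory transmission, 12 lay in gaps, each in a gap of its own. Grm8, Grid1 and Grik2 were the longest, and Grm8 lay 126 kb, Grik2 803 kb and Gria2 234 kb from the nearest peak. Of 19 GABA and glycine receptor genes, which mediate inhibition, 10 were in gaps, Gabrb1, Gabrb2 and Glra3 being the longest and Gabra2 lying 1070 kb from a peak. The synaptic adhesion list had 20 of 70 genes in 19 gaps, or 28.6% (exact 95% interval 18.4 to 40.6%). The classical and type II cadherins had 6 of 23, or 26.1% (10.2 to 48.4%), an interval that holds the share of all coding genes. Of these cadherins Cdh18 lay 1600 kb, Cdh10 1890 kb and Cdh8 29.7 kb from a peak. Potassium channels, with 12 of 92, were near the share of all coding genes.

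Lists of developmental regulators differed. For the homeobox list and for the Sox, Zic and Fox factors the exact 95% intervals hold the 15.4% of all coding genes, the former only just. The list of homeobox regulators had 23 of 101 genes in 17 gaps, or 22.8%, with an upper bound of 32.2%, of which Pax3, Onecut2 and Pax8 were longest. It included Isl1 at 714 kb, Irx2 at 536 kb, Pax9 at 346 kb and Nkx2-1 at 186 kb from the nearest peak. Pax9 patterns the pharyngeal pouches and teeth, and Nkx2-1 directs lung and thyroid development. Among Sox, Zic and Fox factors 12 of 63 were in gaps (exact 95% interval 10.2 to 30.9%), Zic4, Sox11 and Zic1 being the longest, with the stem cell factor Sox2 at 432 kb from a peak. No gene of the 39 in the Hox clusters lay in a gap, nor any of the 57 clustered protocadherins. The upper bounds of their exact 95% intervals, 9.03% and 6.27%, cover counting only, since neighbouring genes of a cluster are not independent. Of these genes, 9 Hox genes and 22 clustered protocadherins stood in intervals of between 250 and 500 kb. Zinc finger genes, with 36 of 420 in gaps, and solute carriers, with 34 of 372, were below the share of all coding genes. Axon guidance genes had 6 of 67 in gaps (exact 95% interval 3.36 to 18.5%), an interval that holds the share of all coding genes.

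The 12 longest gap genes were each at least 946 kb long. Csmd1, a complement-regulating membrane protein of neurons, spanned 1640 kb in a gap of 2.36 Mb. It was followed by the glypican Gpc5 at 1430 kb, Csmd3 at 1210 kb, Ccser1 at 1200 kb and Kcnip4, a potassium channel partner, at 1140 kb. Nrg3, a neuregulin, and Dcc, a netrin receptor, each spanned 1100 kb, and Cntn4, a contactin, 1020 kb. Sdk1, Cadm2 and Epha6, which act in cell contact and axon guidance, and Thsd7b were between 946 and 974 kb long. Despite these, the median gap gene was short, at 7.43 kb against 20.1 kb for all other coding genes, and 12.2% of gap genes had a single exon against 4.37% of the others. The others include genes that reach into a gap. The contrast in length is partly fixed by the rule, since a long gene is less likely to lie wholly inside a gap.

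Marker genes gave a limited check of the tissue label, since the lists were chosen with earlier results of these data known. None of 24 heart muscle genes, 15 endothelial genes or 12 fibroblast genes lay in a gap, against 15.4% of all autosomal coding genes. All of these markers had a replicated peak within 1 kb of a TSS, against 58.2% of all autosomal coding genes. A gene with such a peak can lie in a gap only at its edge, so these counts are not separate. Of 10 liver genes, 4 were in gaps, namely Cyp3a11, Fga, Fgb and Serpina1a, and none had a promoter peak. Of 14 autosomal neuron genes, Elavl4, Gad1 and Gad2 were in gaps, and 2 of the 14 had a promoter peak. Of 15 macrophage and lymphocyte genes, Adgre1 was in a gap and 2 had a promoter peak. In bulk tissue, the absence of a peak at a gene of a rare cell type and the absence of the mark in that cell type cannot be told apart.

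The gaps were poorer in G and C than the rest of the autosomes. Pooled over their length, GC content was 39.2% in gaps and 43.8% between gaps. Over windows of 500 kb, the median was 38.4% in 1619 gap windows (10th to 90th percentile 36.6 to 42.4%), and 43.8% in 2523 windows between gaps (40.1 to 48.4%), so these ranges overlapped between 40.1 and 42.4%. The ratio of observed to expected CG dinucleotides was 0.158 in gaps and 0.212 between gaps. Bases masked as interspersed or simple repeats made up 39.2% of gaps and 29.4% of the rest.

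Part of the gap sequence occurs more than once in the genome, where a read no longer than the repeated stretch has no unique position. Of 31-base stretches sampled every 1 kb, 21.7% in gaps and 11.5% between gaps occurred more than once on the autosomes and sex chromosomes. In 128 gaps the share was above 25%, in 33 above 50%, and the highest was 96.1%. The 128 gaps held 2051 of the 3203 coding genes, which is 64.0%. How the aligner treated such reads is not given in the sources used here, and the part of repeated sequence in the gaps was not tested. Without these 128 gaps, 644 gaps of 796 Mb with 1152 coding genes remained, of which 16.5% were olfactory receptors, against 5.42% of all autosomal coding genes. Of the vomeronasal receptors in gaps, 250 lay in the 128 gaps and 16 in the 644 others.

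Families differed in this respect. Within gene bodies, repeated stretches made up 18.3% for gap genes and 9.17% for other genes. The share was 13.5% for olfactory receptors in gaps, 29.2% for type 1 and 42.6% for type 2 vomeronasal receptors, 77.5% for the major urinary proteins and 63.9% for the 504 gap genes known by predicted Gm symbols. Synaptic adhesion genes stood at 12.1%, glutamate receptors at 10.1%, and GABA and glycine receptors at 13.1%. Cadherins stood at 13.5%, as the olfactory receptors did, and the homeobox list at 2.52%. Some clustered families were also low, at 8.82% for keratins, 3.77% for keratin-associated proteins and 0% for bitter taste receptors. A gap at chr14:41198376-43983703, with 57 coding genes of which 50 had Gm symbols, stood at 89.5%. Unsequenced bases were rare: 731 gaps had none, 10 had over 10%, and the highest share was 21.0%.

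**Figure D4:**
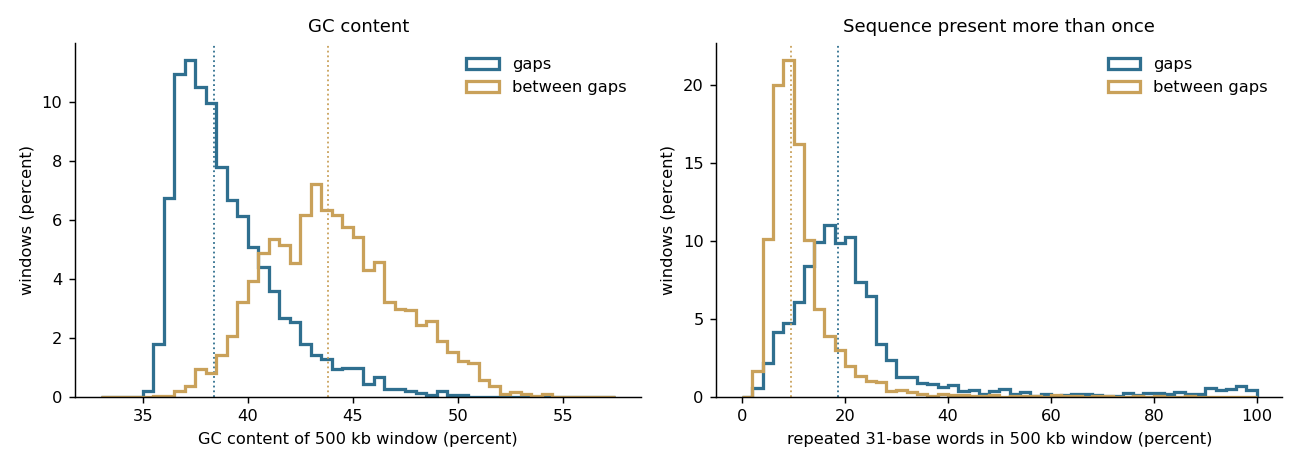
Distribution over 500 kb windows of GC content (left) and of 31-base stretches that occur more than once (right), as a percentage of windows in gaps and between gaps. Dotted lines are medians, which were 38.4% and 43.8% for GC content, and 18.6% and 9.60% for repeated stretches.

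Promoters of gap genes were poor in CG, as the Olfr1164 sequence above illustrates. In the 300 bases around the annotated start, from 250 before to 50 after, the median GC content was 42.7% for gap genes and 57.0% for other coding genes. A promoter was called CpG-rich where its GC content was at least 50% and its ratio of observed to expected CG at least 0.6. This held for 236 gap genes, or 7.37%, and 8602 other genes, or 48.9%, against 42.5% of all autosomal coding genes. In the 128 gaps with over 25% repeated stretches it held for 40 of 2051 coding genes, or 1.95%. In the 644 other gaps it held for 196 of 1152, or 17.0%. The contrast with other genes is partly fixed by the choice of the gaps, since most other genes with CpG-rich promoters had a replicated peak near a TSS. No CG dinucleotide was found in 20.6% of gap promoters and 2.32% of the others. The letters TATAAA, on the coding strand in the 50 bases before the start, occurred in 9.09% of gap promoters, 2.26% of other promoters and 3.31% of all.

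Of the 236 gap genes with CpG-rich promoters, 150 belonged to none of the gene lists and 22 had predicted Gm symbols. None of the 828 olfactory receptors in gaps had one, nor any vomeronasal receptor in gaps. Such promoters were found for 9 of 12 glutamate receptors, 16 of 23 homeobox regulators and 7 of 12 Sox, Zic and Fox factors in gaps. Lrfn5, Sorcs1 and Sdk1 are examples among long genes. The 236 genes lay a median of 159 kb from the nearest replicated peak, against 280 kb for the other gap genes. Among coding genes not wholly inside a gap, 88.5% of those with CpG-rich promoters had a replicated peak within 1 kb of a TSS.

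The 3 other lists were then searched for peaks inside the gaps, as a check of their emptiness. Counting any overlap of 1 bp, 484 of the 772 gaps had no peak in the biological replicate 1 list, or 62.7% (exact 95% interval 59.2 to 66.1%). In the biological replicate 2 list 31 gaps had none, or 4.02% (2.74 to 5.65%), and in the pooled pseudoreplicated list 640 had none, or 82.9% (80.1 to 85.5%). In the single-replicate lists, most of these overlaps were bounding peaks called slightly wider, whereas all 161 overlapping peaks of the pooled list lay wholly inside a gap. Of those 161, however, 68 or 42.2% lay within 10 kb of a gap edge. Among peaks wholly inside a gap, 27.8% in replicate 1 and 30.7% in replicate 2 lay as near to an edge. Peaks that cross a gap edge reached in by a median of 19 bp in 290 cases in replicate 1 and 51 bp in 1111 cases in replicate 2, and by at most 903 bp.

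With peaks wholly inside the gap counted instead, 736 gaps were empty in replicate 1, or 95.3% (93.6 to 96.7%), 509 in replicate 2, or 65.9% (62.5 to 69.3%), and again 640 in the pooled list. The gaps held 36 peaks of replicate 1, 365 of replicate 2 and 161 of the pooled list, which covered 9.49, 169 and 47.7 kb of the 972 Mb. Replicate 2 peaks were at 0.375 per Mb in gaps and 42.1 per Mb between gaps, and replicate 1 peaks at 0.0370 and 38.6 per Mb. The replicates therefore differed in how many peaks they placed in gaps. The number of reads behind each list is unknown, and its part in that difference was not tested.

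**Figure D5:**
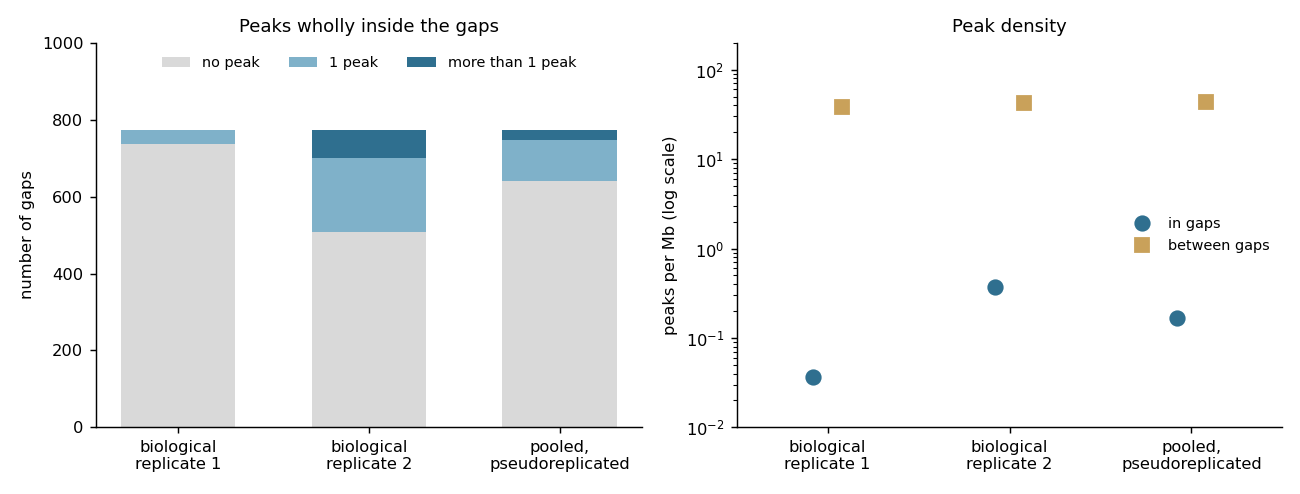
Left, the number of the 772 gaps with no peak, 1 peak or more than 1 peak wholly inside, for each of the 3 other lists. Right, peaks per Mb in gaps and between gaps for the same lists, on a log scale. Density in gaps is below 1 peak per Mb in each list and differs between the replicates.

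Peaks inside gaps were weak and narrow relative to others of the same list. Their median fold, the authors' enrichment ratio, was 3.03 in gaps and 4.74 elsewhere for replicate 1, and 3.62 and 5.44 for replicate 2. Their median width was 247 bp in gaps and 666 bp elsewhere for replicate 1, and 424 and 938 bp for replicate 2. The strongest peak inside a gap had a fold of 6.79, in replicate 2. Fewer lay at genes, with 17.8% of the replicate 2 peaks in gaps within 1 kb of a TSS, against 32.2% elsewhere. The differences in fold and width are partly fixed by the choice of the gaps, since a strong peak would tend to enter the replicated list.

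The replicates hardly shared peaks inside gaps. Only 1 of the 36 replicate 1 peaks in gaps overlapped a replicate 2 peak, whereas 94.7% of other replicate 1 peaks did. This is partly fixed by the choice of the gaps, since a peak of both replicates would tend to enter the replicated list. By gap, 18 held peaks of both replicates, 18 of replicate 1 only, 245 of replicate 2 only, and 491 of neither. In all, 467 gaps, or 60.5%, held no peak of any of the 3 lists. They spanned 578 Mb and contained 1901 coding genes. Among the 15 longest, those between Cdh6 and Cdh12, Ctnna2 and Gcfc2, and Pcdh20 and Pcdh9 were free of peaks in all 3.

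The share of gaps with a replicate 2 peak was similar across classes of gene content and length, but the number of peaks per Mb was not. A replicate 2 peak lay inside 36.1% of gaps without a coding gene, 33.6% of gaps with 1 to 5, 32.4% of gaps with 6 to 19 and 27.9% of gaps with 20 or more. Per Mb, these classes held 0.487, 0.339, 0.341 and 0.244 replicate 2 peaks. By length, 35.5% of gaps below 1 Mb, 32.4% of gaps of 1 to 2 Mb and 31.9% of longer gaps held one. Per Mb, replicate 2 peaks were sparser in longer gaps, at 0.728, 0.315 and 0.129 in these length classes. Gaps defined anew from each list covered nearly the same ground, with 803 gaps of 1030 Mb from replicate 1, 747 of 948 Mb from replicate 2 and 763 of 973 Mb from the pooled list. These covered 99.6%, 95.2% and 98.0% of the length of the original gaps, and 94.0%, 97.6% and 98.0% of their own length lay in the original gaps. For the pooled list this is largely fixed by the peaks that it shares with the replicated list.

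Few gap genes had a promoter peak in any other list. A peak within 1 kb of a TSS was found for 11 gap genes in the replicate 1 list, or 0.343%, against 56.6% of all autosomal coding genes. In the replicate 2 list there were 31, or 0.968%, against 59.3%, and in the pooled list 17, or 0.531%, against 58.4%. These low shares are largely fixed by the choice of the gaps. In all, 33 gap genes in 31 gaps had such a peak, 9 of them in both single-replicate lists, 2 in replicate 1 only and 22 in replicate 2 only. Of the 33, 19 had CpG-rich promoters.

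Of these genes, 10 stood at the very edge of a gap, where the bounding replicated peak itself lay within 1 kb of their TSS. Nuf2, a kinetochore component, began 0.101 kb from the edge of a 1050 kb gap and had folds of 16.5, 24.0 and 20.0 in the replicate 1, replicate 2 and pooled lists. Kif20b, a mitotic kinesin, had 7.47, 11.7 and 8.07, and Spdl1, which acts at the spindle, had 6.80, 11.5 and 8.89. Ect2, which drives cytokinesis, had 3.58, 5.92 and 4.68. The others were the receptor gene Nmbr, the synaptic adhesion gene Negr1, Mctp1, Iqub, the homeobox gene Six2 and Gm3164. For these genes the gap is the body of the gene and what follows it, while the promoter is at the boundary.

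The remaining 23 genes had a promoter peak in another list and none in the replicated list. Of these, 21 had it in replicate 2, 3 in replicate 1 and 8 in the pooled list. Eya1, a transcription cofactor of organ development, had a fold of 5.64 in replicate 2 and 3.51 in the pooled list, and none in replicate 1, at 445 kb from the edge of its gap. Ccser1, whose promoter is shown above, had 4.83 in replicate 2 and 3.70 in the pooled list, 1750 kb from the edge. Ephb6, an ephrin receptor, had 4.63 in replicate 2 alone, and so did Nox4, an NADPH oxidase, at 3.83, and Wnt2, a Wnt ligand, at 3.02. Only B3gnt5, a glycosyltransferase, was marked in both single-replicate lists away from an edge, with folds of 3.21 in replicate 1 and 3.62 in replicate 2. Gm3739 and Gm8281, both at 5.23 in replicate 2, lie on chromosome 14 near other predicted genes. The keratin gene Krt19 and the ubiquitin ligase gene March1 were marked in replicate 1 alone, at 2.68 and 3.03.

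The peaks that bound the gaps resembled other peaks in strength. The median fold was 4.55 over the 1456 bounding peaks and 4.55 over the other 60430 autosomal peaks. Bounding peaks were narrower, with a median of 608 bp against 698 bp. Within 1 kb of a TSS lay 42.2% of bounding peaks and 32.1% of the others. The peak on the right of the longest gap, whose sequence is shown above, was among the stronger, at a fold of 26.8 over 2315 bp near Phf3, whereas the peak on its left had a fold of 3.64.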

How the data were processed

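The series holds 4 H3K27ac libraries of mouse heart, from 2 biological replicates with 2 technical replicates each, and 4 peak lists on mm10. Per the file lists deposited beside the libraries, the lists came from alignments of both biological replicates or of 1 of them, so no list holds a value per library. Each list also names a source file whose content is not stated. The authors' fold is a ratio of enrichment per peak. The deposited −log10 q-value was used only as a threshold within a list, and the −log10 p-value was not used. The summit distance is the authors' other value per peak. The display score of the deposited lists was not used. The aligner, the peak caller and the number of reads were not given in the sources used here, so depth is unknown. Positions are those of mm10, per the labels, while the mice were hybrids, and the part of strain variants was not tested.

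Gaps were read from the replicated list and described with GENCODE M21 on GRCm38, the assembly of mm10, with python 3.11.15, numpy 2.4.6, pandas 2.3.3 and scipy 1.17.1. The steps were tested on simulated data. A gene counted when its whole annotated length lay inside a gap, and its distance to a peak was measured from the gene body. A promoter peak lay within 1 kb of any annotated TSS. Repeated stretches were 31-base words, on either strand, found more than once on chromosomes 1 to 19, X and Y. Promoter sequences are those of RefSeq on GRCm38.p6, which lists 2412 of the 3203 gap genes by symbol. Intervals are exact binomial 95% intervals and cover counting only.

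Members and gene lists were chosen with earlier results of these data known. Named were the 15 longest gaps with their coding genes, the 3 longest genes of the main lists with at least 5 genes in gaps, the 12 longest gap genes, and up to 15 gap genes with the strongest promoter peaks in other lists. Further genes in the text were chosen after their values were seen, and some genes that the rule selects are not reported here. No comparison between conditions exists in the series and no test was made. Alternatives were another minimum length, filters on q and fold, gaps from each other list, other rules for counting a gene or a peak, and the exclusion of repeated gaps or of gaps with peaks in other lists.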

Additional observations from a re-analysis of the deposited data

How the results depend on the processing

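No paired analysis was possible because all libraries belong to 1 group and no test was made. The recomputed values under 72 alternatives stayed within the interval of the value reported, or for counts and lengths within 1.5 times of it, in 50 cases. With a minimum length of 250 kb there were 1587 gaps, 21.3% of gap genes were olfactory receptors and the median GC content of gaps was 40.5%. With 1 Mb there were 338 gaps, 28.8% and 38.4%. From peaks with a fold at or above the list median, the olfactory share was 23.0% and the median GC content 40.0%. Without predicted Gm symbols the olfactory share was 30.7%. With the gaps taken from the list of replicate 1 or replicate 2 alone, the number of gaps ranged from 747 to 803, their length from 948 to 1030 Mb, the coding genes from 3142 to 3420, the olfactory share from 25.1 to 26.4% and the median GC content from 39.3 to 39.5%. Of alternatives chosen after seeing the data, gaps empty in the 3 other lists numbered 467, with 578 Mb and 1901 coding genes, and gaps with at most 25% repeated words held 1152 coding genes, 16.5% of them olfactory receptors. The share of gaps without a peak depended most on what was counted. With a fold at or above the list median it was 83.9% for replicate 1, 26.6% for replicate 2 and 99.9% for the pooled list. With peaks wholly inside it was 95.3% for replicate 1 and 65.9% for replicate 2. With peaks at least 10 kb inside it was 96.6% for replicate 1, 75.5% for replicate 2 and 89.6% for the pooled list. Requiring 500 kb without unsequenced bases left all 772 gaps.

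The gaps rest on the authors' threshold for calling peaks, and a list says nothing of acetylation below it. Both single-replicate lists share reads with the replicated list, the pools share a donor identifier, and read numbers are unknown, so a gap shows that no peak was called and not that the mark is absent.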

Other observations

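Of all 51229 autosomal genes of any kind in the annotation, 25.7% lay wholly inside a gap, and lincRNA and microRNA genes were near that share. Of 5209 autosomal lincRNA genes, long intergenic transcripts, 1275 or 24.5% were in gaps, close to the share of all genes. Of 2913 antisense genes 321 or 11.0% were, which is below it. MicroRNA genes were in gaps in 567 of 2054 cases, or 27.6%, and small nucleolar RNA genes in 598 of 1442, or 41.5%. Per Mb, miRNA genes were at 0.583 in gaps and 1.05 between gaps, whereas small nucleolar RNA genes were at 0.615 in gaps and 0.595 between gaps.

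Of the coding genes in gaps, 948 or 29.6% belonged to none of the gene lists used here.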
